A study of Sus scrofa with 4 samples.

Results

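Neighbouring genes often lie so close that their ends share the same stretch of chromatin. The peaks described here are those of histone H4 lysine 12 lactylation (H4K12la), a lactate-derived acyl mark, at such paired gene ends in sow liver. A peak was taken as a paired-end peak when its summit, the point of highest signal, lay within 1 kb of an end of each of 2 or more different protein-coding genes on chromosomes 1 to 18. Gene positions were those of RefSeq on the pig build Sscrofa11.1. This rule, which uses position only and not the height of a peak, gave 368 of the 28222 peaks on these chromosomes in the high bile acid list and 65 of the 5730 peaks in the low bile acid list. They made up 1.3% of the high list (95% interval 1.17 to 1.44%) and 1.13% of the low list (0.877 to 1.44%). Peaks within 1 kb of the end of exactly 1 coding gene served for comparison and are called single-end peaks; the high list held 2437 of them and the low list 437.

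The livers came from sows in late gestation in a high bile acid group and a low (normal) bile acid group, and the series title names intrahepatic cholestasis of pregnancy and c-JUN signalling. Each group had 1 library immunoprecipitated with an antibody against H4K12la and 1 input library, and the labels give female sex, liver tissue and hepatocytes as the cell type, without breed, age or number of animals. With 1 library per group there was no replicate, so no difference between the groups could be tested, and peaks of the same library are not replicates of each other. Shares are therefore given with exact Clopper-Pearson 95% intervals, and counts and densities with exact Poisson 95% intervals. Both cover counting error only. A peak list does not measure cell types, but of 12 hepatocyte marker genes 1 had a high-list summit within 1 kb of an end, 0 had a low-list one, and 0 of the 12 have a paired end. Among markers of other cells, 1 of 5 endothelial and 1 of 5 lymphocyte genes had such a high-list summit. None of the cholangiocyte, Kupffer and myeloid, stellate and erythroid markers found did so, and the low list had no summit at a marker of any of these types. For comparison, 15.6% (high) and 2.96% (low) of all coding genes had such a summit, so a lack of peaks is not particular to markers. The labelled cell type could therefore not be checked in these lists, since most coding genes, markers among them, were without peaks.

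Pairs of neighbouring genes are read either away from each other from a shared promoter region, towards each other with their 3′ ends facing, or in the same direction. In mammals many pairs of the first kind share a bidirectional promoter rich in CpG sites. Genes of DNA repair, mitochondria and RNA processing are frequent among them. Histone acylation is in general found on the nucleosomes flanking active start sites. The gene table used here gives both ends of each gene but no strand, so the 3 arrangements could not be told apart, and an end may be a start or a finish of transcription.

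Summits were denser at paired ends than at the ends of lone genes in both lists. Sequence within 1 kb of the ends of 2 or more coding genes came to 5.73 Mb, which is 8.45% of the 67.8 Mb within 1 kb of any coding gene end. It held 13.1% of the gene-end peaks of the high list (368 of 2805; 11.9 to 14.4%) and 12.9% of those of the low list (65 of 502; 10.1 to 16.2%). In the high list this made 64.3 summits per Mb at paired ends (57.9 to 71.2), 39.3 at single ends (37.7 to 40.9) and 11.6 in sequence at no coding gene end (11.4 to 11.7). The low-list densities were 11.4 per Mb at paired ends (8.76 to 14.5), 7.04 at single ends (6.40 to 7.73) and 2.38 elsewhere (2.32 to 2.44). Density at paired ends was 1.64 times that at single ends in the high list (1.46 to 1.83) and 1.61 times in the low list (1.22 to 2.1).

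**Figure D1:**
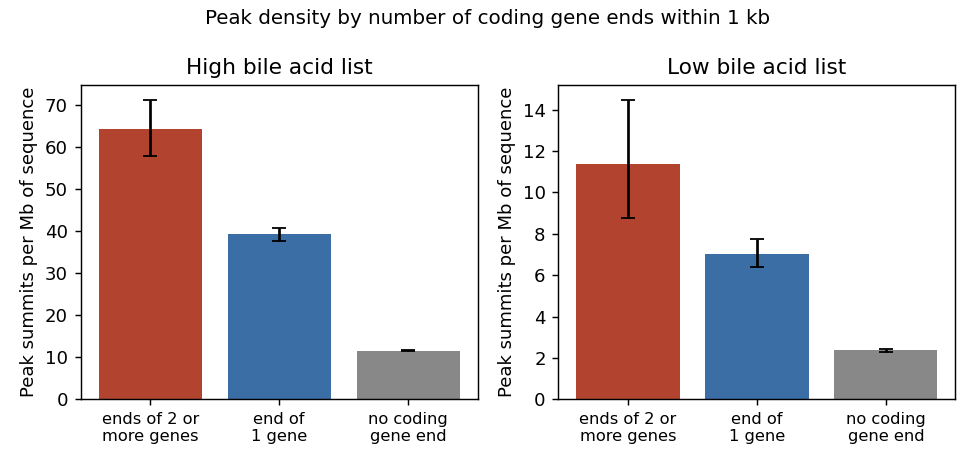
Bars give peak summits per Mb of sequence (linear axes that start at 0) at the ends of 2 or more coding genes, at the end of 1 coding gene and at no coding gene end, for the high list (left) and the low list (right), with exact Poisson 95% intervals. In both lists the paired ends stand highest, at 64.3 and 11.4 per Mb, above single ends at 39.3 and 7.04.

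Surroundings of paired ends were also richer in peaks. In sequence 5 to 20 kb away on either side, with all coding gene ends left out, the high list held 24.9 summits per Mb around paired ends and 18.8 around single ends. The low list held 4.15 and 3.51. Relative to these flanks, density in the high list was 2.58 times as high at paired ends and 2.09 times as high at single ends. The low-list ratios were 2.74 at paired ends and 2.01 at single ends. The flanks of neighbouring ends share sequence, so these are descriptions.

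The order was repeated along most chromosomes. In the high list, paired-end density was above single-end density on 16 of 18 chromosomes, the exceptions being chromosome 17 (42.1 against 48.1 per Mb) and chromosome 18 (23.4 against 35.6 per Mb). Chromosome 6 held the most paired-end peaks, 53, but also the most paired-end sequence, 0.764 Mb, at 69.3 per Mb (51.9 to 90.7). Chromosome 11 had the highest density, 121 per Mb from 8 peaks (52.1 to 238). Both intervals hold the 64.3 per Mb of all 18 chromosomes. In the low list, where a chromosome held 0 to 9 paired-end peaks, the density was higher at paired ends on 13 of 18.

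Within paired ends, high-list summits were densest a short way from the ends and sparser close to them. Where the nearest coding gene end was 201 to 500 bp away, the density was 83.7 summits per Mb at paired ends (71.7 to 97.1) and 45.4 at single ends (42.4 to 48.5). Within 200 bp of an end it was 51.0 at paired ends (41.4 to 62.1) and 32.6 at single ends (29.5 to 36.0), and at 501 to 1000 bp it was 55.9 (45.3 to 68.2) and 38.2 (36.1 to 40.5). Density within 200 bp was thus lower than at 201 to 500 bp in both classes of the high list. For the 65 paired-end summits of the low list the intervals of these ranges overlap (10.3 per Mb within 200 bp and 11.6 per Mb at 201 to 500 bp). Paired-end sequence lies closer to an end on average. Had it carried the single-end density at each distance, 226 high-list summits would have been found in place of 368, a ratio of 1.63 (1.46 to 1.80, counting error of the 368 only), and the low-list ratio was likewise 1.63 (1.26 to 2.08).

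**Figure D2:**
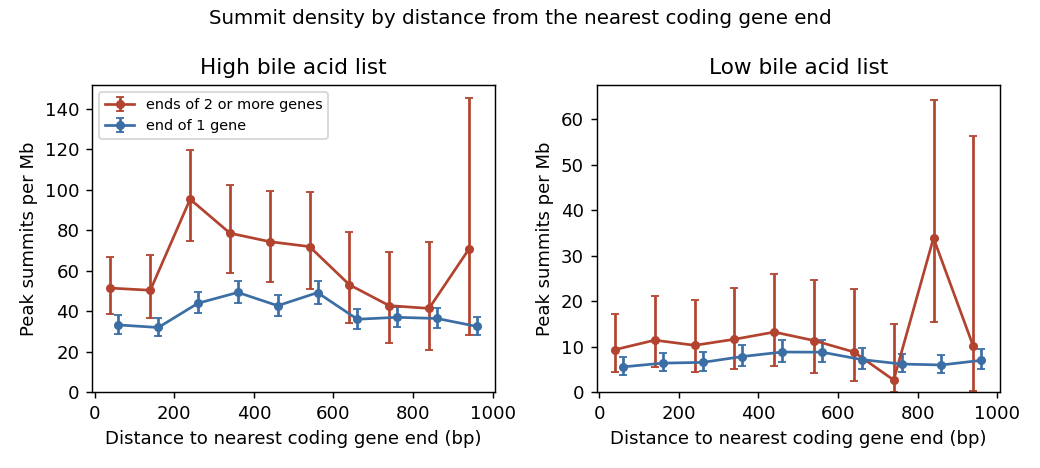
Points give summits per Mb (vertical axes start at 0) in 100 bp steps of distance to the nearest coding gene end, for sequence at the ends of 2 or more genes and at the end of 1 gene, with exact Poisson 95% intervals; the high list is on the left and the low list on the right. In the high list the highest paired-end point is 95.4 per Mb, at 201 to 300 bp. Pooled over steps, the paired ends held 83.7 per Mb between 201 and 500 bp, 51.0 within 200 bp and 55.9 beyond 500 bp.

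High-list summits were also denser inside genes than between them. At paired ends of the high list, sequence inside exactly 1 coding gene held 71.6 summits per Mb (283 summits; 63.5 to 80.4), sequence inside 2 or more held 54.8 (34 summits; 37.96 to 76.6) and sequence inside none held 44.3 (51 summits; 33.0 to 58.3). Single ends had the same order at lower values, with 48.2, 36.0 and 29.3 per Mb. The low list gave 10.9, 16.1 and 10.4 per Mb at paired ends, with intervals that overlap one another. The annotation does not show whether a summit inside a gene lies in an exon, an intron or an untranslated region.

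The same data can be read by gene and by gene pair. With a high-list summit within 1 kb of any of their ends were 19.5% of the coding genes that have a paired end, against 13.4% of those without and 15.6% of all coding genes. The low-list shares were 3.39%, 2.72% and 2.96%. A summit at the paired end itself was found for 10.3% of the 6842 genes that have one in the high list (705 genes), and for 1.89% in the low list (129 genes).

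In all, 4290 pairs of coding genes had ends within reach of a common summit, that is at most 2000 bp apart, and these pairs involved 6842 of 18722 coding genes (36.5%). A high-list summit within 1 kb of both genes was found for 369 pairs, 8.6% of all such pairs, and a low-list summit for 67, or 1.56%. Pairs separated by a gap of 1 to 250 bp had a shared high-list summit in 12.9% of cases (146 of 1135; 10.97 to 15.0%). With a gap of 251 to 500 bp it was 9.62% (35 of 364; 6.79 to 13.1%) and with 501 to 1000 bp 7.48% (40 of 535; 5.39 to 10.0%). At 1001 to 1500 bp it was 2.17% (10 of 461; 1.04 to 3.95%), and at 1501 to 2000 bp 1.23% (5 of 407; 0.400 to 2.84%).

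Pairs with longer gaps have a narrower window in common, with a median of 1894 bp for gaps of 1 to 250 bp and 248 bp for gaps of 1501 to 2000 bp. Per Mb of shared window, the density was 70.8 for gaps of 1 to 250 bp (60.0 to 83.0), 60.4 for 251 to 500 bp (42.3 to 83.6), 59.1 for 501 to 1000 bp (42.2 to 80.5), 28.3 for 1001 to 1500 bp (13.6 to 52.0) and 50.3 for 1501 to 2000 bp (16.3 to 117). Of these, the class at 1001 to 1500 bp had an interval that did not reach that of the shortest gaps, and the other classes overlapped with it. Genes that overlap in part had 68.6 per Mb (57.2 to 81.6), with a shared high-list summit in 9.69% of 1259 pairs (8.11 to 11.5%). For the low list, 2.22% of the partly overlapping pairs (1.48 to 3.20%) and 1.24% of pairs with a gap (36 of 2902; 0.870 to 1.71%) had a summit.

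**Figure D3:**
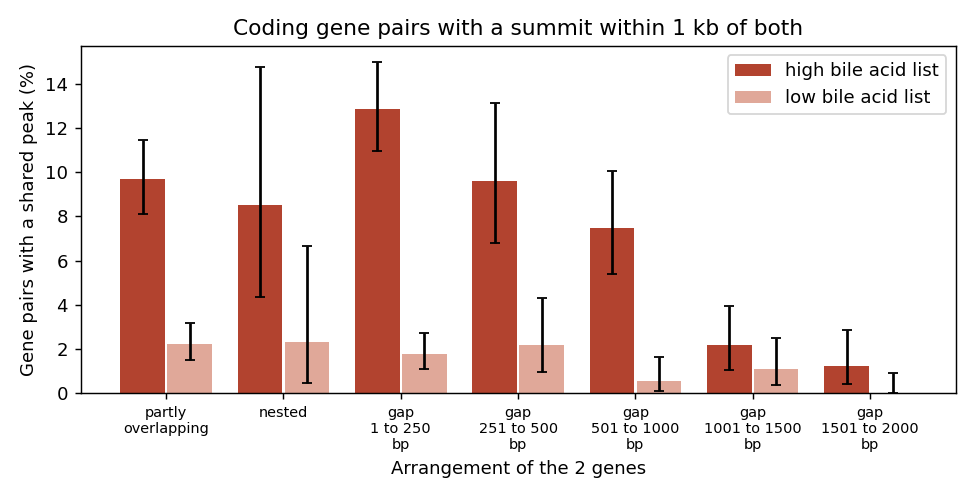
Bars give the percent of coding gene pairs with a peak summit within 1 kb of both genes, by arrangement of the pair, for the high list (left bar) and the low list (right bar), with exact Clopper-Pearson 95% intervals. The high list falls from 12.9% at gaps of 1 to 250 bp to 1.23% at 1501 to 2000 bp, where the window that both genes have in common is also narrowest.

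The 368 high-list peaks mostly lay at genes that do not overlap, and most pairs in reach of a common summit are of this kind. Of all 4290 such pairs, 67.6% have a gap, 29.3% overlap in part and 3.01% are nested. The nearest pair of genes had a gap between them at 239 peaks (64.9%), overlapped in part at 119 (32.3%) and was nested at 10. The ends that met there were a median of 169 bp apart (quartiles 69.8 and 449 bp), and the summit lay a median of 322.5 bp from the nearer end and 567 bp from the farther one. Of the 65 low-list peaks, 36 lay at a gap (55.4%; 42.5 to 67.7%), 26 at a partial overlap and 3 at nested genes, with ends a median of 203 bp apart. A gene with only a provisional name was among the genes at 61 of the high-list peaks (16.6%) and 7 of the low-list peaks (10.8%). Of all coding genes, 16.1% have such a name, a share by gene and not by peak.

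Paired-end and single-end peaks were close to each other in height. Fold, which is the authors' measure of how far the pileup at a summit exceeds its local background, ranged between 1.83 and 5.39 at paired ends of the high list with a median of 2.92 (quartiles 2.60 and 3.35), against a median of 2.94 at single ends (2.60 and 3.35). Low-list medians were 3.08 at paired ends (quartiles 2.70 and 3.34) and 2.97 at single ends (2.68 and 3.27). The fragments at a summit, recovered from the fold and p-value of each peak, numbered 7 to 16 at paired ends of the high list, with a median of 10 over 2.52 expected. Single ends had a median of 9 over 2.44 expected. These are small whole numbers, so many peaks have exactly the same fold.

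At the authors' q under 0.05, reached at a paired end by 31 genes or 0.453% of those that have one, 4.08% of the high-list paired-end peaks remained (15 of 368; 2.30 to 6.63%), against 4.14% of the single-end peaks (101 of 2437; 3.39 to 5.01%) and 1.91% of the peaks at no coding gene end (1.75 to 2.09%). None of the 65 low-list paired-end peaks had a q under 0.05, which allows a share of up to 5.52%, and 60 of them had a q of 1. Paired-end peaks of the high list had a median width of 385 bp and single-end peaks one of 381 bp. Widths of 700 bp or more made up 7.88% (5.34 to 11.12%) and 5.21% (4.36 to 6.17%), with intervals that overlap.

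**Figure D4:**
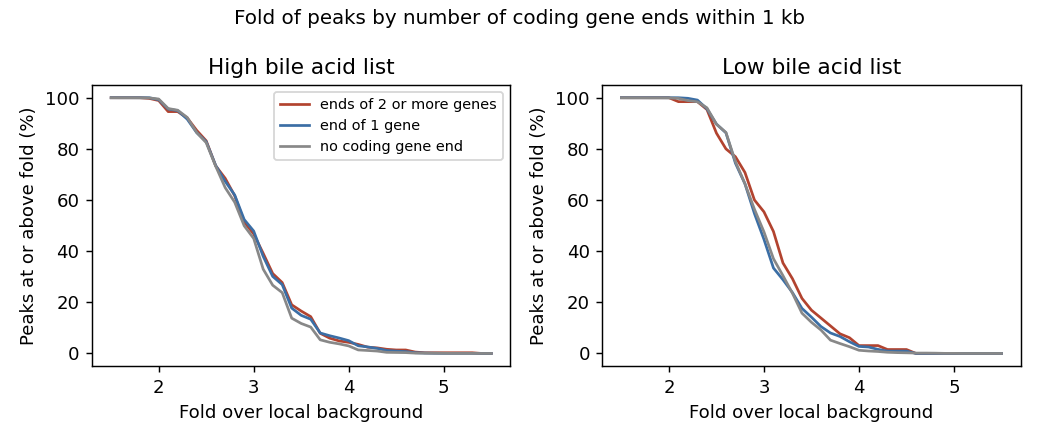
Curves give the percent of peaks at or above each fold over the local background for peaks at the ends of 2 or more coding genes, at the end of 1 gene and at no coding gene end, in the high list (left) and the low list (right). The paired-end and single-end curves of the high list run together, with medians of 2.92 and 2.94.

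The 20 paired-end peaks of highest fold in the high list held all 15 with a q under 0.05. At the top stood CDC42EP5, which encodes an effector of the GTPase CDC42, and its neighbour LENG9, whose ends lie 3 bp apart. Their shared peak on chromosome 6, 58857034 to 58857612, had a fold of 5.39 (q 0.000155) from 16 fragments (9.15 to 26.0) over 2.16 expected. MAPKAPK5, a kinase downstream of MAP kinases, shared a peak with a gene that has only a provisional name. It lies on chromosome 14, 39885531 to 39885969, and its fold was 4.72 (q 0.00204), with 16 fragments at the summit.

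HSPD1 and HSPE1 encode the mitochondrial chaperonin HSP60 and its partner HSP10, which form the folding chamber of the mitochondrial matrix, and in human and mouse they are a textbook case of a bidirectional promoter. The pig ends lie 521 bp apart on chromosome 15, and the peak at 101372944 to 101373446 had the third highest fold, 4.70 (q 0.0106), from 13 fragments (6.92 to 22.2) over 1.98 expected. Its summit was inside 1 of the genes, 299 bp from the nearer end. Of the 37 genes found from a list of textbook bidirectional pairs, 34 had a paired end. HSPD1, HSPE1 and SURF2 (fold 2.34, q 0.548, with SURF4) were the 3 with a high-list peak there (8.82%; 1.86 to 23.7%). HSPD1 and HSPE1 share 1 peak. SURF4 is not on the list, so the peak of SURF2 does not lie at a listed pair. The share over all coding genes with a paired end was 10.3% (high) and 1.89% (low). No gene of this list had a low-list paired-end peak.

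The other leading pairs were of mixed function. SCAMP2, a membrane protein of secretory carriers, and the kinase gene ULK3 shared a peak of fold 4.64 (q 0.0106) in the 844 bp between them. BAZ1A, a subunit of ISWI chromatin remodelling complexes, had a fold of 4.63 (q 0.0081) with an overlapping gene of provisional name. ACO1, the cytosolic aconitase that doubles as an iron-responsive RNA-binding protein, had 4.40 (q 0.009015), also with a gene of provisional name. These pairs include neighbours set apart and overlapping genes alike.

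Further down, FAM212A and TRAIP, the second a ubiquitin ligase of stalled replication forks, had a fold of 4.33 (q 0.0152). PTDSS2, a phosphatidylserine synthase, and RNH1, the ribonuclease inhibitor, had 4.32 (q 0.0237), with the summit in the 1116 bp between them. CCDC148 and PKP4, a plakophilin of cell junctions, had 4.23 (q 0.0316). C18H7orf49 with TMEM140, and TMEM183A with a gene of provisional name, each had a fold of 4.16 (q 0.0164) from 15 fragments over 2.85 expected. All of these rest on 12 to 15 fragments.

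INTS11, the catalytic subunit of the Integrator complex that cleaves nascent RNA, shared a peak of fold 4.14 (q 0.031) with CPTP, a ceramide-1-phosphate transfer protein. ELMOD3 and the retinol saturase gene RETSAT had 4.11 (q 0.031). PNPLA6, a lysophospholipase, and MCOLN1, a lysosomal cation channel, had 4.08 (q 0.0431). DBN1, GRK6 and PRR7, which encode the actin-binding protein drebrin, a kinase of G protein-coupled receptors and a proline-rich protein, met at 1 peak of fold 3.90 (q 0.0349) on 14 fragments. It is 1 of 7 high-list peaks at the ends of 3 coding genes, and no peak in either list lay at the ends of 4. The others, named after their values were seen, include TMEM102 with the growth factor gene FGF11 and the acetylcholine receptor subunit gene CHRNB1 (3.55, q 0.139), and CEP85 with SH3BGRL3 and UBXN11 (3.23, q 0.176).

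The 5 remaining peaks of the leading 20 did not pass q under 0.05. CUTC, with a gene of provisional name, and DNAJC8 with ATPIF1, the inhibitor of the mitochondrial ATP synthase, each had a fold of 4.03 (q 0.0736). The zinc finger genes ZBTB25 and ZBTB1, 28 bp apart, had 3.98 (q 0.0548), with the summit 1 bp from an end. MYO1C, an unconventional myosin, had 3.91 and LINS1 with ASB7 had 3.87, both with a q of 0.0736. At the foot of the list of 368 stood SLC38A1, a glutamine transporter, with a gene of provisional name, named after its value was seen, at a fold of 1.83 (q 0.711), where 13 fragments lay over 6.65 expected.

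**Figure D5:**
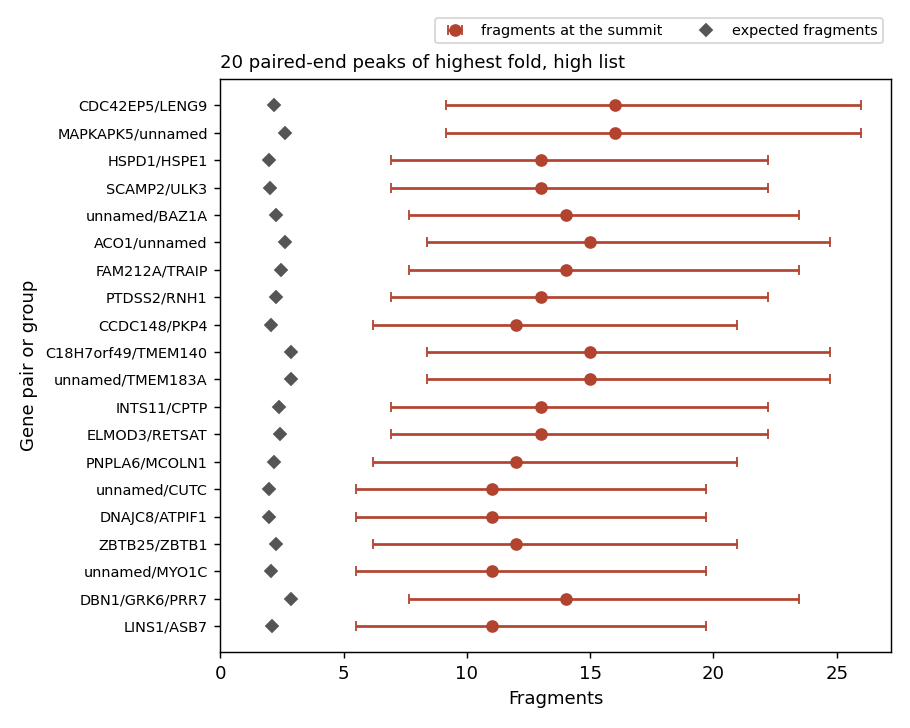
Circles give the fragments at the summit, with exact Poisson 95% intervals, and diamonds the expected fragments, for the 20 high-list paired-end peaks of highest fold, ordered by fold; "unnamed" stands for a gene with only a provisional name. Every interval lies above its expected number, as the calling of a peak requires, and fragments run between 11 and 16.

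The 8 paired-end peaks of highest fold in the low list were at pairs without a high-list summit in reach of both genes. Of all 4290 pairs only 8.6% had one, so this does not show a difference between the livers. POLR1D, shared by RNA polymerases I and III, led with a gene of provisional name at chromosome 11, 5043786 to 5044191, where 15 fragments (8.40 to 24.7) over 2.09 expected gave a fold of 4.59 (q 0.0533). CRNKL1, a splicing factor, and CFAP61, a cilium protein, had 4.23 (q 0.598). JOSD1, a deubiquitinase, and TOMM22, an import receptor of the outer mitochondrial membrane, had 3.99 (q 0.751). CEP83, a centriole protein, had 3.93 and TRMT1L with SWT1 had 3.87. ZBTB6 with ZBTB26 had 3.74, ORC6, of the origin recognition complex, with VPS35, of the retromer, had 3.70, and POC1B with GALNT4 had 3.67, all 3 with a q of 1. Of these 8 pairs, 6 overlap in part and 1 is nested, against 26 and 3 of all 65 low-list peaks. Over all 4290 pairs the shares were 29.3% and 3.01%. With 8 peaks picked by fold, this does not show an effect of arrangement.

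A call in 1 list only does not show a difference in occupancy. The counts that follow were made for paired-end peaks only, so they cannot be called particular to paired ends. Of the 364 high-list paired-end peaks without an overlapping low-list peak, 6 had a fragment interval at or above the lowest number that would have made a peak in the low library with the same expected number (7 or 8 for these peaks, at a p of 0.01). They were CDC42EP5 with LENG9, MAPKAPK5, BAZ1A, ACO1, C18H7orf49 with TMEM140, and TMEM183A. The pair of C18H7orf49 and TMEM140 did have a separate low-list peak (fold 2.94), with its summit 397 bp away. Of the 60 low-list paired-end peaks without an overlapping high-list peak, 9 did so by the limit of the high library. They include the pairs of POLR1D, CRNKL1, JOSD1, CEP83, TRMT1L, ZBTB6 and ORC6 named above, beside TSPAN10 with NPLOC4 and C9H11orf1 with CRYAB, which are named after their values were seen.

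Overlap between the lists at paired ends was small. Of the 368 high-list paired-end peaks, 4 (1.09%; 0.297 to 2.76%) overlapped a low-list peak by at least 1 bp, against 2.09% of the single-end peaks (51 of 2437; 1.56 to 2.74%) and 0.594% of peaks at no coding gene end (0.503 to 0.696%). On the low side, 5 of 65 paired-end peaks (7.69%; 2.54 to 17.0%) and 49 of 437 single-end peaks (11.2%; 8.41 to 14.6%) overlapped a high-list peak. The intervals of paired and single ends overlap on either side.

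The shared peaks were of modest height in both livers, and 3 of the 4 are given here. ROM1, a photoreceptor disc protein, and EML3, a microtubule-associated protein, had folds of 2.94 (high) and 2.75 (low), with summits 16 bp apart. HMGA1, a chromatin architecture protein, with a gene of provisional name had 2.75 (high) and 3.35 (low). SLC25A15, the mitochondrial ornithine carrier of the urea cycle, had 2.60 (high) and 3.02 (low). High-list q ran between 0.232 and 0.429 for these peaks, and every low-list q was 1.

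By gene pair, 11 pairs were called in both lists, 2.98% of the 369 high-list pairs (1.497 to 5.27%) and 16.4% of the 67 low-list pairs (8.49 to 27.5%). Of all 4290 pairs, 1.56% were called in the low list and 8.6% in the high list, and these shares lie inside the 2 intervals. Besides the 4 with overlapping peaks, 7 pairs had separate peaks with summits 397 to 1704 bp apart, and they are named here after their values were seen. They were C18H7orf49 with TMEM140 (fold 4.16 in the high list, 2.94 in the low list), SMPDL3B with XKR8 (3.55 and 2.09), ACAA1, a peroxisomal thiolase, with OXSR1 (3.37 and 3.05), the DNA repair genes GEN1 and SMC6 (3.35 and 2.89), DPM1 with MOCS3 (2.86 and 2.38), IL17RC with CRELD1 (2.64 and 3.15), and the mitochondrial ribosome genes MRPS11 and MRPL46 (2.50 and 2.60).

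Counted once for each pair, and so with repeats, 382 high-list and 67 low-list summits lay within reach of both genes of the 4290 pairs. In the high list 13 pairs had 2 separate summits there, and in the low list none did. The lists differ in length, so these 2 counts do not show a difference between the livers. Among the 13 pairs, named after their values were seen, were CPNE1 with RBM12 (folds of 3.87 and 3.68) and HTRA2, a mitochondrial protease, with AUP1 (3.69 and 3.38). Another was GLS2, the liver glutaminase, with RBMS2 (3.36 at both peaks). TRMT112 with ESRRA, an orphan nuclear receptor of energy metabolism, had 3.25 and 2.60.

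Functional groups were counted only over members that have a paired end, since no other gene could qualify. Members that share 1 peak were each counted, as MCM4 with PRKDC or HADHA with HADHB. Such members are not independent, and the intervals of the groups do not allow for this. DNA repair and replication genes were annotated with a paired end in 62 of 85 cases (72.9%), and 10 of the 62 (16.1%; 8.02 to 27.7%) had a high-list peak there, an interval that holds the 10.3% of all such genes. FEN1, the flap endonuclease, with TMEM258 had a fold of 3.39 (q 0.167), XPC, a damage sensor of nucleotide excision repair, with LSM3 had 3.37 (q 0.168), and MCM4 of the replicative helicase with PRKDC, the DNA-dependent protein kinase, had 3.35 (q 0.232). In the low list 1 of 62 had a peak, XPC at its other neighbour TMEM43, with 3.34 (q 1).

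Mitochondrial ribosome genes had a high-list paired-end peak in 7 of 41 cases (17.1%; 7.15 to 32.1%) and a low-list one in 3 of 41 (7.32%; 1.54 to 19.9%), against 10.3% and 1.89% of all genes. MRPS6, nested with the inositol transporter SLC5A3, had 3.69 (q 0.139), MRPL30 with MITD1 had 3.02 and MRPL55 with GUK1 had 2.78 in the high list. The low-list members were MRPL40 (3.11) and the pair of MRPS11 and MRPL46 given above. Respiratory chain genes had 5 of 49 (10.2%) in the high list, led by NDUFB7 of complex I with TECR (3.23), and 0 of 49 in the low list. Cytosolic ribosome symbols had 6 of 48 (12.5%) in the high list, with 0 in the low one. RPL23A with TLCD1 (3.38) and RPL27A with TRIM66 (2.89) were among the 6, but the highest, RPS6KC1 (3.69), is a kinase-like gene caught by its name.

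Genes of RNA synthesis and processing lay near the 10.3% and 1.89% of all genes. Splicing and mRNA processing had 9 of 90 (10.0%) in the high list and a single gene, INTS12, in the low list. INTS11 above, the RNA helicase DDX6 (3.39) and LSM3 headed the 9. RNA polymerase and general factors had 5 of 59 (8.47%) in the high list, with 1 of 59, POLR1D, in the low one. TAF9 met AK6 and the checkpoint gene RAD17 at 1 peak of 3.69 (q 0.139), and POLR2A, the largest subunit of RNA polymerase II, shared a peak of 3.20 (q 0.187) with SLC35G6. Zinc finger genes had 13 of 114 (11.4%) in the high list, with 3 of 114 in the low one. ZNF784 and ZNF581 (3.70) came after ZBTB25 and ZBTB1. Transfer RNA synthetases had 1 of 18, VARS with VWA7 (2.84), in the high list, with none in the low one.

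For protein handling, chaperone symbols had 6 of 44 (13.6%) in the high list, among them HSPD1, HSPE1 and DNAJC8, and 1 of 44 in the low list. One of the 6, HSPG2, is a matrix proteoglycan caught by its name. Proteasome symbols had 4 of 24 (16.7%; 4.74 to 37.4%) in the high list, led by the assembly factor PSMG4 (3.12), and 1 of 24 in the low list, PSMC3IP, a recombination factor rather than a proteasome subunit. F-box, cullin and deubiquitinase genes, counted together with TRIM and RNF names, had 11 of 115 (9.57%) in the high list, with TRIM46 beside MUC1 (3.74), FBXO7 (3.41) and RNF166 (3.38), and 2 of 115 in the low list. TRIM46 and RNF166 are neither F-box, cullin nor deubiquitinase genes and were caught by these names, as were TRIM66, TRIM39 and RNF217. Trafficking symbols had 9 of 85 (10.6%) in the high list, with VPS50 (3.31) and SEC61B, of the endoplasmic reticulum translocon, with ALG2 (3.23). SEC14L2 (3.28), also among the 9, is a lipid-binding protein caught by its name. In the low list 2 of 85 had one, VPS35 and COPA (3.08). Kinesin, dynein and cilium symbols had 3 of 64 (4.69%; 0.977 to 13.1%) in the high list, against 1 of 64, CFAP61, in the low list. The 3 were TTC3, a ubiquitin ligase, TTC25, of the dynein arms of cilia, and TTC13. All 3 were caught by the TTC name, which marks a protein repeat and not a role in cilia. The 10.3% of all genes lay inside the high-list interval of each of these groups.

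Bile acid genes with paired-end peaks included a nuclear receptor and transporters. Of 38 bile acid synthesis, transport and signalling genes found, 17 had a paired end and 3 of the 17 (17.6%; 3.799 to 43.4%) had a high-list peak there, an interval that holds the 10.3% of all genes. They were NR1H3, which encodes the oxysterol receptor LXR alpha, overlapping MADD (fold 3.69, q 0.139, chromosome 2, 15314593 to 15314950), SLC51B, a subunit of the basolateral bile acid exporter, overlapping RASL12 (3.37, q 0.168), and SLC22A7, an organic anion transporter, with CRIP3 (3.01, q 0.294). In the low list 1 of 17 had one, RXRB, a partner of bile acid and oxysterol receptors, with SLC39A7 (2.57, q 1). Each of these peaks lies within 1 kb of its neighbour as well, so it cannot be assigned to 1 gene of the pair.

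For lipid, glycolysis, AP-1 and plasma protein genes, the intervals likewise held the 10.3% (high) and 1.89% (low) of all coding genes with a paired end. Lipid and cholesterol genes had 3 of 13 (23.1%; 5.04 to 53.8%) in the high list, with 0 of 13 in the low one. SREBF1, a master regulator of lipid synthesis, with RAI1 had 3.12 (q 0.232), and HADHA and HADHB, which encode both subunits of the mitochondrial trifunctional protein of fatty acid oxidation and lie next to each other, had 2.78 (q 0.381) at chromosome 3, 112753130 to 112753600. Glycolysis, lactate and lactylation genes had 2 of 24 (8.33%) in the high list, the lactate transporter SLC16A1 with LRIG2 (3.03) and the deacetylase HDAC3 with RELL2 (2.60), and 0 of 24 in the low list. AP-1 and MAP kinase genes had 2 of 15 (13.3%), MAPKAPK5 and MAPK14 (3.12), and 0 of 15. Hepatocyte plasma protein genes seldom had a close coding neighbour, with a paired end in 6 of 36 cases, and 0 of the 6 had a paired-end peak in either list. Of the markers of other cells, CD3D with CD3G, subunits of the T cell receptor complex, had a high-list paired-end peak (3.10, q 0.232).

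For the remaining groups, which were formed by symbol, the intervals held the 10.3% (high) and 1.89% (low) of all genes too. Solute carriers had 17 of 125 (13.6%; 8.13 to 20.9%) in the high list, with 2 of 125 in the low one, though SLC7A6OS, SLC9A3R2 and SLC2A4RG among the 17 carry the name without being carriers. SLC5A3, the zinc transporter SLC39A5 (3.66, with NABP2) and SLC51B led them. Open reading frame names had 14 of 133 (10.5%) in the high list, with 4 of 133 in the low one. TMEM names had 12 of 107 (11.2%) and CCDC names 9 of 62 (14.5%) in the high list, with 2 each in the low list. Collagens and laminins had 2 of 19, LAMB3 and LAMB2, at 3.36 and 3.35, in the high list, with none in the low one. Neither histone gene with a paired end had a peak in either list.

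At the 1 kb limit itself, peaks just inside and just outside had folds in the same range. Just inside, at 993 to 1000 bp from the farther end, were XRCC1 with PINLYP (fold 2.87), STAT5A with STAT5B (3.16), ETV7 with PXT1 (2.08) and JPT2 with CRAMP1 (3.58). Just outside, at 1002 to 1007 bp, were TP53I11 with TSPAN18 (2.98), NFKBIB with CCER2 (2.78), B4GAT1 with BRMS1 (2.21) and PLPPR2, SWSAP1 and EPOR (2.34).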

How the data were processed

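Per the labels' protocols, chromatin was fixed in 1% formaldehyde, sonicated for 8 min and made into libraries from 10 ng of DNA with 13 cycles of amplification. The submitters' processing notes name bcl2fastq 2.17, Trimmomatic 0.33, Bowtie 1.1.2 and MACS2 2.1.0, with the builds hg38 and Sscrofa11.1. Positions were read as Sscrofa11.1, since the lists hold no chromosome number above 18, and are given 1-based. The authors deposited 1 narrow peak list per immunoprecipitated library. In it, the fold is a ratio over the local background, p-values and q-values are given as −log10, and the deposited score is 10 times the −log10 p-value cut to a whole number, which served no purpose here. Which cutoff the peak caller ran with is not given in the sources, and no p above 0.0099 occurs.

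Fragments at each summit and their expected number were solved from the deposited fold and p-value, which gave whole numbers for 99.986% of high-list and 99.983% of low-list peaks within 0.002. These solutions hold with 1 added to both pileups in the fold, which lowers it where fragments are few. High-list peaks had a median of 9 fragments and low-list peaks 10, so each peak rests on few fragments. Whole numbers required a scale of 0.881 on the low-list pileup. Library totals were not used here. Reads without molecular identifiers are not independent molecules.

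Coding genes included 3016 with a provisional LOC name among 18722. The planned counts of gene orientation and promoter motifs were not run, since neither strand nor sequence was used here. Python 3.11.15, numpy 2.4.6, pandas 2.3.3 and scipy 1.17.1 were used, and the scripts were tested on simulated data. No test between groups or peak classes was run. The members and gene lists were chosen with earlier results of these data known. Genes were named by a rule on fold (the 20 highest of the high list, the 8 highest of the low list, peaks shared by the lists, up to 3 members per list, peaks of 4 or more genes, and those next to the 1 kb limit), and others are marked as named after their values were seen. A few results that this rule would name are not reported here.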

Additional observations from a re-analysis of the deposited data

How the results depend on the processing

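No paired analysis was possible because there is 1 antibody library in either group and the labels number no replicates. No replicate could be left out. With a window of 0.5 kb, the paired-end peaks numbered 155 (high) and 25 (low) and made up 10.1% of high-list gene-end peaks. With 2 kb they numbered 808 (high) and 120 (low), and 18.8%. At q under 0.05, 15 and 0 remained, so no low-list density ratio could be had. At a fold of 4 or more, 16 and 2 remained, the high-list share was 11.6%, the ratio of paired-end to single-end density in the high list 1.42, and the share with q under 0.05 was 87.5%. Without LOC names, the share was 11.7% and that ratio 1.46. Without overlapping genes, 240 (high) and 36 (low) remained, with a share of 9.0%. At the length of the low list, the high list kept 99 paired-end peaks, 15.2% of them with q under 0.05. The counts follow from fewer peaks, another window or fewer genes, and the cause of the other shifts was not tested. The density ratio was 1.42 to 1.79 over the high-list alternatives and 1.31 to 1.81 over the low-list ones, with 95% intervals that reached below 1 in 4 cases: high list at q under 0.05 (0.869 to 2.78) and at a fold of 4 or more (0.788 to 2.40), low list at a fold of 4 or more (0.196 to 8.12, from 2 peaks) and without overlapping genes (0.927 to 1.89). The difference in median fold between paired and single ends of the high list lay between -0.08 and 0.08. With 2 kb it was -0.075, and only there did the interval stay negative (-0.083 to -0.040). That interval covers the paired-end median only. The other 39 of 59 alternative values stayed within the interval of the value reported, or within 1.5 times of a count. Few fragments per peak limit every single peak.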

Other observations

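Neighbours whose symbols share the same letters, such as CD3D and CD3G, make up a small group of pairs in reach of a common summit. Of 109 such pairs, 5 had a shared high-list summit (4.59%; 1.51 to 10.4%) and 4 a shared low-list summit (3.67%; 1.01 to 9.13%). Of 3481 pairs with different letters, 302 had one in the high list (8.68%; 7.76 to 9.66%) and 56 in the low list (1.61%; 1.22 to 2.08%). These groups do not cover all 4290 pairs. The window in common had a median of 1357 bp for the same letters and 1596 bp for different letters. Per Mb of this window, high-list summits numbered 36.7 and 65.4, and low-list summits 29.3 and 11.6. This count was chosen after the data were seen.

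Genes with a high-list paired-end peak were shorter than genes with only single-end peaks, with medians of 14588 bp (705 genes) and 24206 bp (2215 genes). The annotation differs likewise without regard to peaks, with medians of 16982.5 bp for the 6842 coding genes that have a paired end and 24067 bp for the 11880 that have none. Among those over 2000 bp, 36.9% with a paired-end peak (33.3 to 40.7%) and 44.2% with only single-end peaks (42.1 to 46.3%) had a further high-list summit deeper than 1 kb inside the gene. The part of gene length in this share was not tested. A long noncoding RNA end within 1 kb was rarer at paired-end peaks of the high list (1.36%; 0.443 to 3.14%) than at single-end peaks (5.21%; 4.36 to 6.17%). Such ends also cover less of the paired-end sequence, 1.36% against 3.45% of single-end sequence.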
